A study of Mus musculus with 9 samples.

Results

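The proteasome genes of the mouse kidney were taken as all symbols of the count tables that begin with Psm, then a letter from a to g, then a digit. This rule gave 45 of 22637 symbols. The 5 members that make up the interferon-inducible immunoproteasome and its activator (Psmb8, Psmb9, Psmb10, Psme1 and Psme2) were set apart from the other 40. Of the 45 members, 44 passed the filter on low counts: all 5 inducible members and 39 of the other 40. The member left out was Psma8, an alpha subunit of the testis, which had 3 to 9 reads in a library. Psmc3ip, a meiotic recombination gene, met the rule by its name and is no subunit. Psmb11, Psmg1, Psmg2 and Psmg4 had no row under those symbols and were not analysed here.

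RNA from whole kidneys of 129X1/SvJ mice aged 9 weeks was sequenced in 9 libraries, 3 in each of 3 groups. The first group lacked Col4a3 and received antimiR-21, an agent against the microRNA miR-21 (KO_antimiR21). The second group lacked Col4a3 and received phosphate-buffered saline, PBS (KO_PBS). The third was wild type with no treatment (WT). Col4a3 encodes a collagen chain of the glomerular filter, and mice without it are a model of Alport kidney disease. No WT library received PBS or antimiR-21, so genotype and treatment cannot be told apart in comparisons with WT. The deposited names give each library a number of its own and place both sexes among the WT libraries, but no label ties each library to its own animal, and each p-value rests on the spread between these libraries.

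The proteasome is the main protease of the cytosol and nucleus and degrades proteins marked with ubiquitin. Its core, the 20S particle, is a barrel of alpha and beta rings with 3 catalytic beta subunits, Psmb5, Psmb6 and Psmb7. Interferon-gamma induces Psmb8, Psmb9 and Psmb10, which take the places of Psmb5, Psmb6 and Psmb7 in newly assembled particles and shift the cuts toward peptides that fit class I molecules. Leukocytes carry much of this form without induction, while kidney epithelium carries mostly the constitutive form. The 19S regulatory particle, built of ATPases (Psmc genes) and other subunits (Psmd genes), recognises and unfolds the substrate. Psme1 and Psme2 form PA28, a cap that opens the core without ubiquitin.

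Upstream sequences of the catalytic genes are shown because the results turn on pairs of inducible and constitutive genes, whose transcript levels moved apart. Windows of 250 bases before to 50 bases after the start came from RefSeq (build GRCm38.p6), and 38 of the 45 members had one. Each window was searched on both strands for 2 copies of GAAA with 2 bases between them (interferon-stimulated response element, ISRE), TTCNNNGAA (gamma-activated site, GAS, a STAT site that reads the same on both strands), TGACNNNGC (antioxidant response element, ARE, bound by NRF proteins), CCAAT and a 10-base NF-kappaB motif. Capitals mark the match in each line, and none of the matches shown overlapped another motif. The Psme1 line holds 30 bases that begin just after the start. The lines for Psmb8, Psmb9 and Psme1 show inducible genes, and those for Psmb5 and Psmb6 the constitutive subunits that Psmb8 and Psmb9 replace.
Psmb8, chr17:34197945-34198194, + strand: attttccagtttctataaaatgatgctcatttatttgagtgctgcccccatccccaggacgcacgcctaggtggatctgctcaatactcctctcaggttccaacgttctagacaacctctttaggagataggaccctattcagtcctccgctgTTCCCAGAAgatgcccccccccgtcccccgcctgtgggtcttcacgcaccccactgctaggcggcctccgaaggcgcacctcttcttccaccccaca
Psmb9, chr17:34187331-34187580, - strand: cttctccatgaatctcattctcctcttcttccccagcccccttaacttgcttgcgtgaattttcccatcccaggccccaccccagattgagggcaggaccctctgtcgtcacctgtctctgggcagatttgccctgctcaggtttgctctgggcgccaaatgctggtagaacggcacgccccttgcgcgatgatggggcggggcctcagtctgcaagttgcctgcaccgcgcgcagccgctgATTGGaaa
Psme1, chr14:55578495-55578524, + strand: agctgtgcTTTCGCTTTCccttcccgctgc
Psmb5, chr14:54617996-54618245, - strand: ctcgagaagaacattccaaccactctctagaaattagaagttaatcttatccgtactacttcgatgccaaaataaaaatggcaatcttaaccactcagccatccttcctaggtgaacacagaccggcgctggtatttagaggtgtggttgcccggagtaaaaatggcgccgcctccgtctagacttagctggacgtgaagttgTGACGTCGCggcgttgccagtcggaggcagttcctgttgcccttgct
Psmb6, chr11:70525107-70525356, + strand: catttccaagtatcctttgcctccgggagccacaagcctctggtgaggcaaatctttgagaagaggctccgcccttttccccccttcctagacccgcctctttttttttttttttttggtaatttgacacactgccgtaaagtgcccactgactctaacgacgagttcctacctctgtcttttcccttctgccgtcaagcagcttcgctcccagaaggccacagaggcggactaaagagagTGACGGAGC

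Psmb8 held a GAS motif 97 to 89 bases before its start, a motif found in 8.3% of all 32851 windows of this length. Psme1 held an ISRE at bases 9 to 18 after its start, on the minus strand relative to the gene, against 3.44% of all windows. Psmb9 held only a CCAAT box, at 8 to 4 bases before its start on the minus strand, and 37.4% of all windows hold one. Its window shares 275 bases with that of Tap1, the peptide transporter gene on the opposite strand of chromosome 17, and the 2 starts lie 226 bases apart. No motif of the 5 was found in the windows of Psmb10 and Psme2. Psmb5 and Psmb6 each held an ARE, at 47 to 39 and at 9 to 1 bases before the start, and 12.4% of all windows hold one. No match of the 5 motifs was recorded for Psmb7, the remaining constitutive catalytic gene, whose sequence is not shown. Whether Psmb7 was among the 7 members without a window is not stated here, so it may not have been searched. Among the 33 members with a window outside the inducible set, Psmb5 and Psmb6 included, 6 held an ARE, 6 an NF-kappaB motif (8.46% of all windows), 13 a CCAAT box, 3 an ISRE and 1 a GAS. Each match is a match of letters, and binding was not measured.

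Total expected counts were 26448275 to 31786624 per library. Levels are in CPM, counts per 1000000 counts of a library, scaled between libraries by edgeR's TMM factors (0.894 to 1.149). Col4a3 itself had 104, 70.6 and 138 CPM in KO_antimiR21, 44.3, 94.3 and 60.2 in KO_PBS, and 371, 257 and 316 in WT, so all 6 knockout libraries lay below every WT library. Transcripts of Y-linked genes summed to 102 to 118 CPM in all 6 knockout libraries and WT 2, and to 0.928 and 1.49 in WT 1 and WT 3. WT 1 and WT 3 thus carried female RNA, and sex was unequal between WT and both knockout groups. A library code in the deposited files, whose meaning no source here states, was L5 for all 3 KO_antimiR21 libraries and KO_PBS 3, and L4 for KO_PBS 1, KO_PBS 2 and the 3 WT libraries. Kidney markers from the list of epithelial and podocyte genes were present in every library. Differences were tested with edgeR's quasi-likelihood test over 17315 genes, and a gene was called at a Benjamini-Hochberg adjusted p under 0.05. KO_PBS against WT and KO_antimiR21 against WT share the WT libraries, and KO_antimiR21 against KO_PBS shares libraries with both, so the 3 sets of values are not independent.

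The 3 inducible catalytic genes rose in both knockout groups, to 2.88 to 6.22 times the WT level in KO_antimiR21 kidneys and 3.67 to 7.27 times it in KO_PBS kidneys. Both PA28 genes rose in KO_PBS against WT, by about 0.7 on the log2 scale. All 5 inducible members were thus called higher in KO_PBS against WT, where 14.6% of all tested genes were called higher and 9.85% lower. Against WT, 3 of the 5 were called higher in KO_antimiR21, where 6.72% of tested genes were called higher and 0.427% lower. Of the 39 other members, 1 rose and 2 fell in KO_PBS against WT by edgeR. In KO_antimiR21 against WT edgeR called none of them and DESeq2 called 2. None of the 14 constitutive genes of the core was called by edgeR in any comparison, while DESeq2 called Psmb7 lower in KO_PBS against WT. No member was called in KO_antimiR21 against KO_PBS, where 0% of tested genes were. There edgeR called 0 of 17315 genes, 1203 genes had an unadjusted p under 0.05, and DESeq2 called 19.

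Psmb8, the inducible subunit with chymotrypsin-like activity, had 39.3, 44.1 and 17.7 CPM in KO_antimiR21 1 to 3, 50.01, 35.1 and 32.9 CPM in KO_PBS 1 to 3, and 4.56, 6.02 and 5.67 CPM in WT 1 to 3. Every knockout library lay above every WT library, and KO_antimiR21 3 was the lowest of the 6 knockout libraries. The level averaged 33.7 ± 14.1 CPM in KO_antimiR21, 39.4 ± 9.29 in KO_PBS and 5.41 ± 0.762 in WT (SD, n = 3 each). The log2 fold change was 2.64 ± 0.34 (SE) in KO_antimiR21 against WT, with an edgeR adjusted p of 0.00441, and 2.86 ± 0.34 in KO_PBS against WT, with an edgeR adjusted p of 0.00147. Of the 44 members tested, Psmb8 had the largest fold change in both comparisons with WT. Reads over part of this gene could belong to Gm20496 on the other strand, since the counting is not stated to use strand.

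Psmb9, the inducible subunit that replaces Psmb6, had 19.4, 17.2 and 8.75 CPM in KO_antimiR21, 16.7, 15.3 and 11.4 CPM in KO_PBS, and 3.16, 3.33 and 4.42 CPM in WT. Again no knockout library reached down into the WT range. The log2 fold change was 2.05 ± 0.32 in KO_antimiR21 against WT (edgeR adjusted p = 0.00639) and 1.99 ± 0.32 in KO_PBS against WT (edgeR adjusted p = 0.00335). Its exons overlap those of Tap1 on the opposite strand, so reads in the overlap cannot be told apart without strand.

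Psmb10, the inducible subunit with trypsin-like activity, had 58.1, 50.03 and 23.1 CPM in KO_antimiR21, 69.2, 48.5 and 49.7 CPM in KO_PBS, and 14.01, 14.8 and 16.8 CPM in WT. The groups with and without Col4a3 did not overlap, and KO_antimiR21 3 was closest to WT. The log2 fold change was 1.53 ± 0.31 in KO_antimiR21 against WT (edgeR adjusted p = 0.0197) and 1.88 ± 0.32 in KO_PBS against WT (edgeR adjusted p = 0.00415). The call in KO_antimiR21 against WT was lost without KO_antimiR21 1, KO_antimiR21 2 or any 1 WT library, where the log2 fold change was 1.27 or more, and with only the compared groups in the fit, where it was 1.53 (edgeR adjusted p = 0.0518).

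Psme1, the alpha subunit of PA28, had 159, 125 and 96.0 CPM in KO_antimiR21, 161, 114 and 105 CPM in KO_PBS, and 67.2, 71.4 and 85.7 CPM in WT. Its partner Psme2 had 121, 95.7 and 74.5 CPM in KO_antimiR21, 115, 95.2 and 83.7 CPM in KO_PBS, and 52.3, 61.4 and 67.4 CPM in WT. In both genes all knockout libraries lay above the WT libraries, by a small gap for KO_antimiR21 3. Psme1 differed by 0.76 ± 0.22 on the log2 scale in KO_antimiR21 against WT, which missed the threshold (edgeR adjusted p = 0.0847), and by 0.76 ± 0.22 in KO_PBS against WT, which passed it (edgeR adjusted p = 0.0377). Psme2 differed by 0.69 ± 0.20 in KO_antimiR21 against WT (edgeR adjusted p = 0.0818) and by 0.70 ± 0.20 in KO_PBS against WT (edgeR adjusted p = 0.0344). Without KO_antimiR21 3 both passed in KO_antimiR21 against WT, at 0.94 and 0.86 (edgeR adjusted p-values of 0.0313 and 0.0228). The PA28 calls in KO_PBS against WT were lost when WT 1, WT 2, WT 3, KO_PBS 1 or KO_PBS 2 was left out, with log2 fold changes of 0.55 or more for Psme1 and 0.56 or more for Psme2. The exons of Psme1 overlap those of Emc9 on the other strand, and Psme2 has a close copy in the mouse genome, Psme2b, so reads of either gene may be shared.

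**Figure D1:**
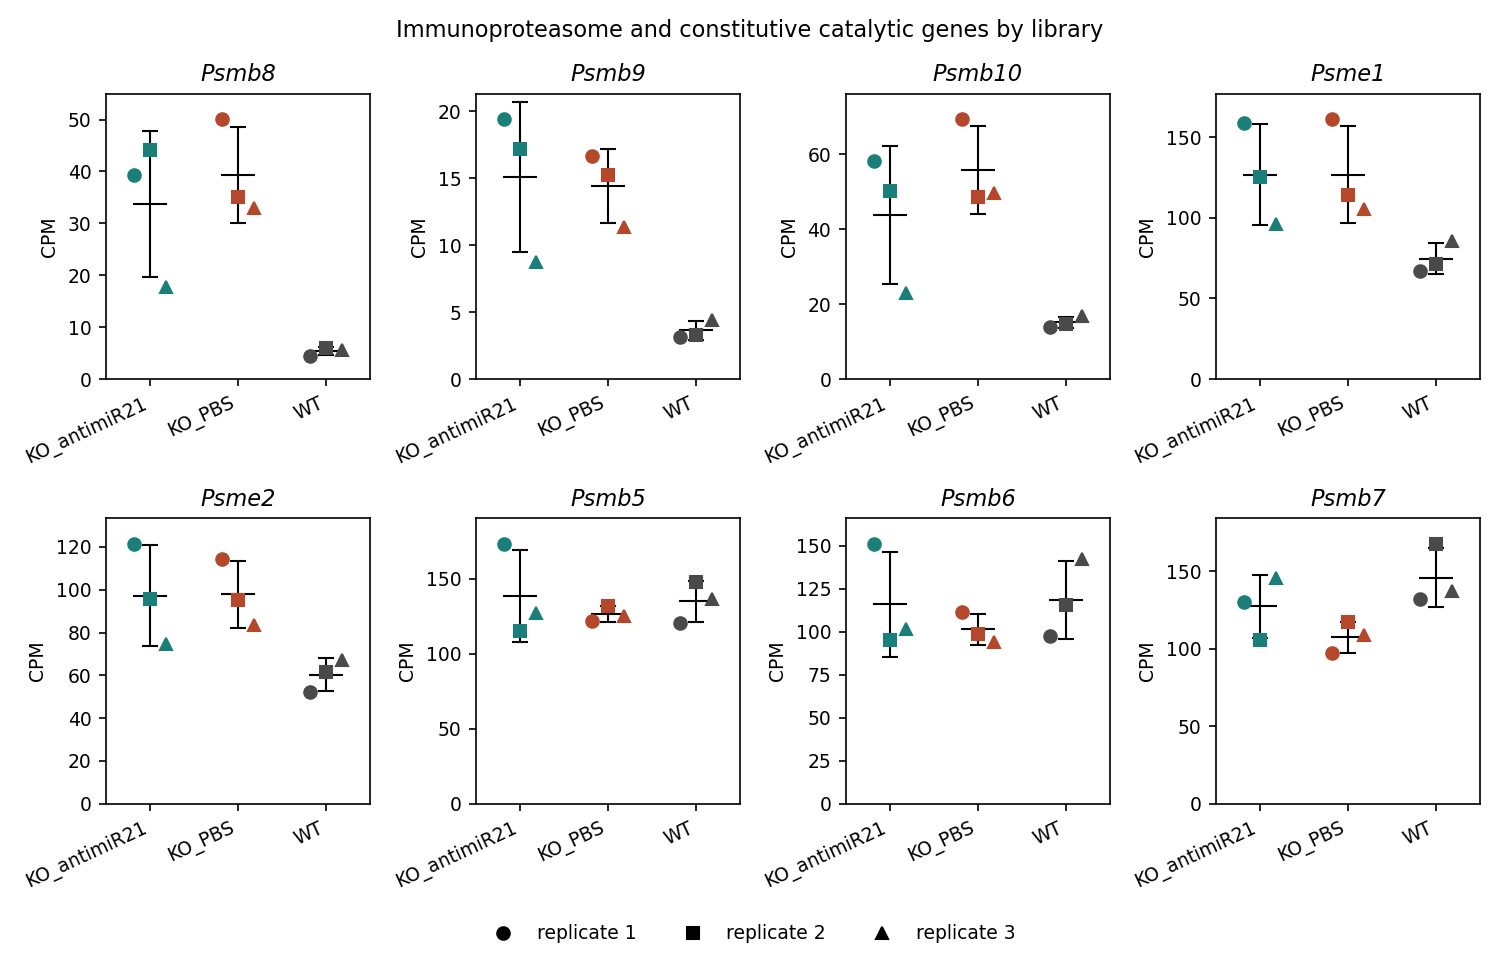
CPM (TMM-scaled, axes from 0) of the 5 inducible members and the 3 constitutive catalytic genes in each of the 9 libraries, with marker shape for the replicate and a bar for the group mean ± SD (n = 3). In the panels for Psmb8, Psmb9, Psmb10, Psme1 and Psme2 the KO_antimiR21 and KO_PBS libraries all lie above the WT libraries, with KO_antimiR21 3 the lowest of the 6, while the groups overlap in the panels for Psmb5 and Psmb6.

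In all 5 inducible members the KO_antimiR21 libraries did not overlap with the WT libraries, which held for 24.5% of tested genes, and the KO_PBS libraries did not either, which held for 43.1%. Their median log2 fold change was 1.53 in KO_antimiR21 against WT and 1.88 in KO_PBS against WT, beside -0.04 and -0.03 over all tested genes.

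Between the 2 knockout groups the inducible members overlapped in every case, while 10.7% of tested genes had groups that did not. The log2 fold change in KO_antimiR21 against KO_PBS was -0.22 ± 0.32 for Psmb8, with a 95% interval of -0.94 to 0.49 and an edgeR adjusted p of 0.928. For Psmb9 it was 0.07 ± 0.30 (95% interval -0.61 to 0.74), and for Psmb10 -0.35 ± 0.30 (95% interval -1.04 to 0.34). Psme1 and Psme2 differed by -0.0015 and -0.0089, with 95% intervals of -0.51 to 0.50 and -0.46 to 0.44. The edgeR adjusted p of these 4 genes lay between 0.838 and 0.999. The intervals of the catalytic genes include a fall of 0.61 or more on the log2 scale, so a change of that size could not be told from none with 3 libraries a group. On the scale of log2 CPM, all 5 members lay above their KO_antimiR21 mean in libraries 1 and 2 and below it in library 3, with a median log2 deviation of -0.71 there. In KO_PBS, all 5 lay above their mean log2 CPM in library 1 and none in library 3.

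The constitutive catalytic genes did not follow. Psmb5, which Psmb8 replaces, had 173, 116 and 127 CPM in KO_antimiR21, 122, 132 and 125 CPM in KO_PBS, and 120, 148 and 136 CPM in WT. Psmb6, which Psmb9 replaces, had 151, 95.1 and 102 CPM in KO_antimiR21, 112, 98.4 and 94.2 CPM in KO_PBS, and 97.6, 116 and 143 CPM in WT. Both genes overlapped in all 3 groups, with KO_antimiR21 1 the highest library for each. Psmb7, which Psmb10 replaces, had 130, 106 and 146 CPM in KO_antimiR21, 97.1, 117 and 109 CPM in KO_PBS, and 132, 168 and 138 CPM in WT. Exons of Psmb7 overlap those of Nek6 on the opposite strand, so reads in the overlap cannot be told apart without strand. The KO_PBS libraries of Psmb7 all lay below its WT libraries. Its log2 fold change was -0.44 ± 0.16, which missed the threshold in edgeR (adjusted p = 0.0763) and passed it in DESeq2 (adjusted p = 0.0419). The corresponding values in KO_PBS against WT were -0.09 ± 0.17 for Psmb5 (95% interval -0.47 to 0.28) and -0.22 ± 0.21 for Psmb6 (95% interval -0.69 to 0.24). Against WT, the KO_antimiR21 values were 0.04 ± 0.17 for Psmb5, -0.03 ± 0.21 for Psmb6 and -0.20 ± 0.16 for Psmb7. In KO_antimiR21 against KO_PBS they were 0.13 ± 0.17, 0.19 ± 0.21 and 0.24 ± 0.16 in the same order. With library size alone in place of TMM scaling, Psmb5 and Psmb6 turned to positive values in KO_PBS against WT, 0.19 and 0.06, as did the median of all genes, which moved to 0.25.

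**Figure D2:**
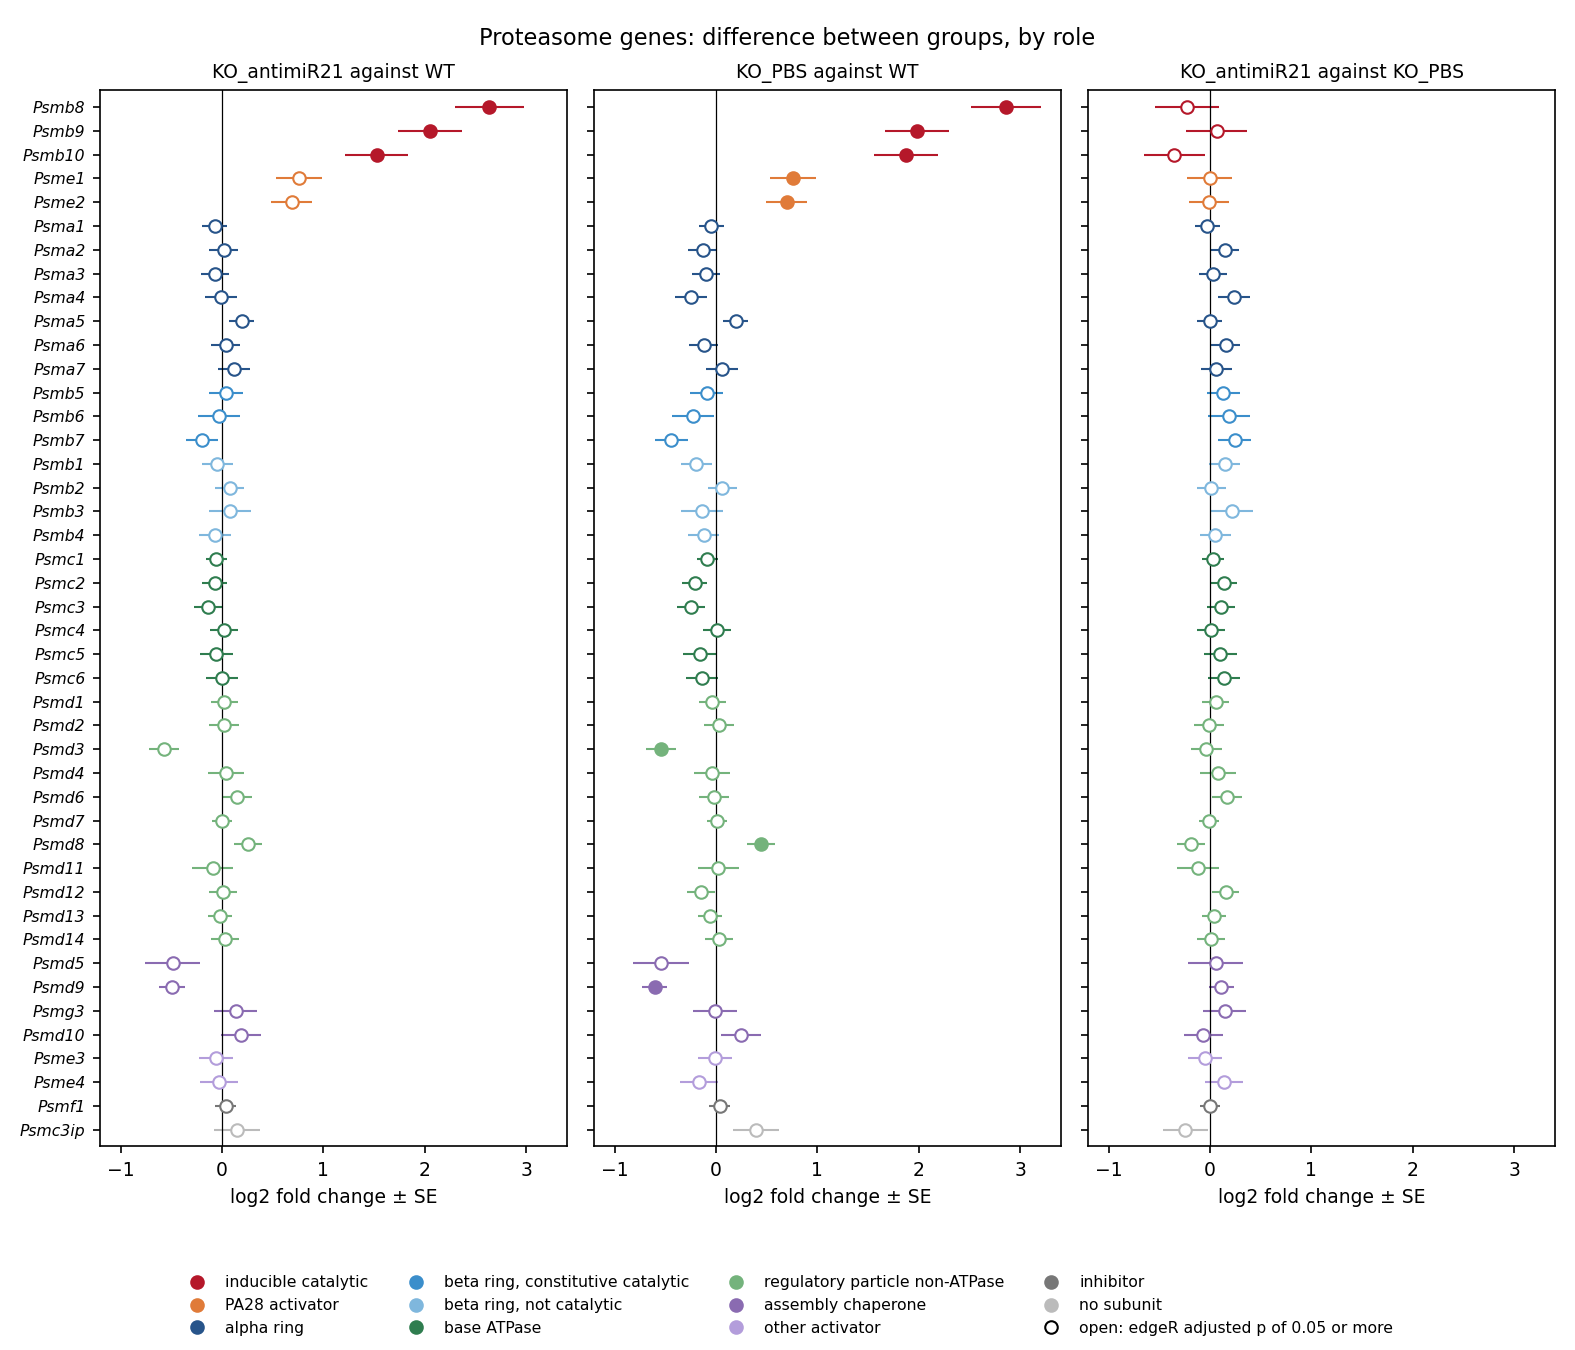
Log2 fold change ± SE (edgeR, n = 3 libraries a group) of the 44 tested members, in rows grouped by role, for KO_antimiR21 against WT, KO_PBS against WT and KO_antimiR21 against KO_PBS; filled points passed an adjusted p of 0.05. The inducible catalytic genes lie between 1.53 and 2.86 in both comparisons with WT, the 39 other members lie between -0.60 and 0.45 in KO_PBS against WT, and no point is filled in KO_antimiR21 against KO_PBS.

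Each inducible gene was then set against the subunit it replaces, within the same library, which removes the scaling between libraries. For every 100 CPM of Psmb5 there were 22.7, 38.2 and 13.9 CPM of Psmb8 in KO_antimiR21, 40.9, 26.6 and 26.3 in KO_PBS, and 3.80, 4.08 and 4.17 in WT. For every 100 CPM of Psmb6 there were 12.9, 18.1 and 8.63 CPM of Psmb9 in KO_antimiR21, 14.9, 15.5 and 12.1 in KO_PBS, and 3.26, 2.90 and 3.12 in WT. For every 100 CPM of Psmb7 there were 44.7, 47.3 and 15.8 CPM of Psmb10 in KO_antimiR21, 71.3, 41.4 and 45.7 in KO_PBS, and 10.6, 8.84 and 12.2 in WT. In all 3 pairs the 6 knockout libraries lay above the 3 WT libraries, and in all 3 KO_antimiR21 3 was the lowest knockout library.

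The mean log2 ratio of Psmb8 to Psmb5 was higher by 2.51 in KO_antimiR21 and by 2.93 in KO_PBS than in WT. The ratio of Psmb9 to Psmb6 was higher by 2.03 and by 2.19, and that of Psmb10 to Psmb7 by 1.62 and by 2.29, in the same order of groups. Each of these 6 differences had a two-sided exact permutation p of 0.1, the smallest that 3 libraries against 3 can give, and 0.15 after Benjamini-Hochberg adjustment over the 9 ratio tests. Between KO_antimiR21 and KO_PBS the ratios differed by -0.42, -0.16 and -0.67, with exact permutation p-values of 0.4, 0.8 and 0.5.

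**Figure D3:**
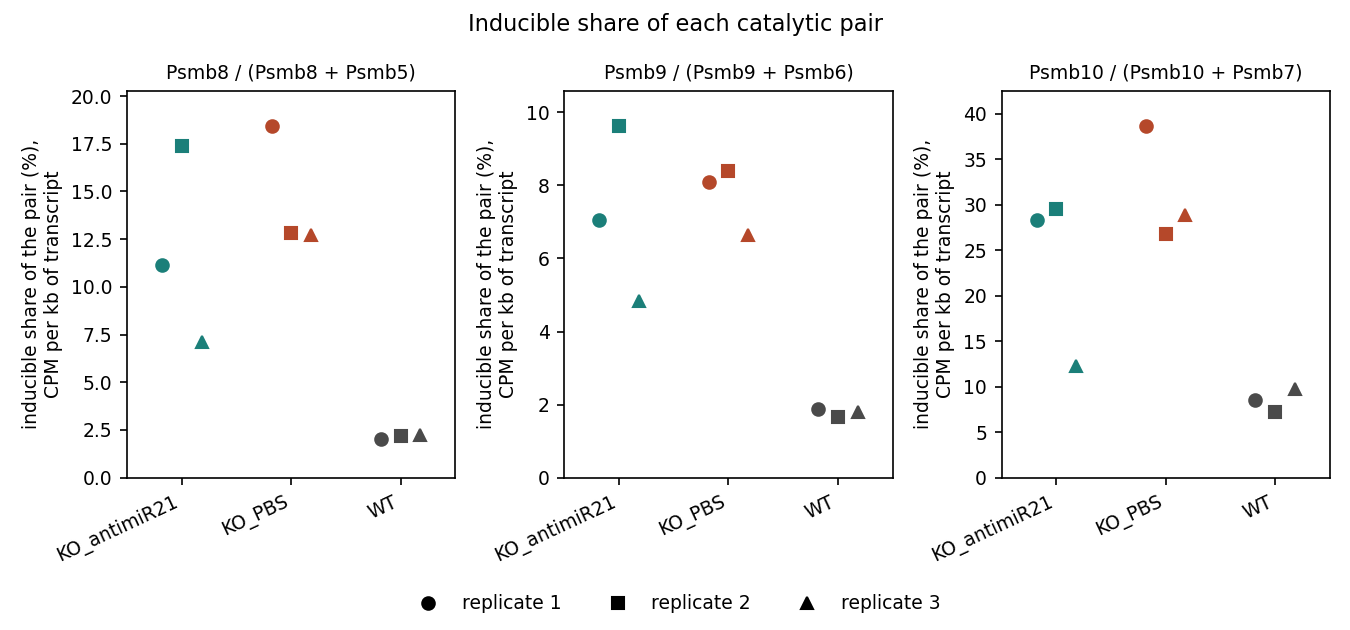
Share of each catalytic pair taken by its inducible member (%), from CPM per kilobase of transcript, in each of the 9 libraries, with marker shape for the replicate and y axes from 0. The share of Psmb10 is 12.3 to 29.5% in KO_antimiR21, 26.8 to 38.7% in KO_PBS and 7.25 to 9.74% in WT, and the shares of Psmb8 and Psmb9 stay under 20% and 10% in all libraries.

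Levels of different genes were compared per length, as CPM per kilobase of the principal transcript in GENCODE M21. This is not the annotation used for counting, so these levels are approximate. Psmb8 made up 11.1, 17.4 and 7.13% of the Psmb8 and Psmb5 level in KO_antimiR21, 18.4, 12.8 and 12.7% in KO_PBS, and 2.05, 2.20 and 2.24% in WT. Psmb9 made up 4.84 to 9.64% of its pair in KO_antimiR21, 6.65 to 8.38% in KO_PBS and 1.67 to 1.88% in WT. Psmb10 made up 12.3 to 29.5% of its pair in KO_antimiR21, 26.8 to 38.7% in KO_PBS and 7.25 to 9.74% in WT. The constitutive transcript thus remained the more abundant of each pair in all 9 libraries. Psmb5 ranked first of the 44 tested members per length in every group, at 154 ± 33.9 CPM per kilobase in KO_antimiR21, 141 ± 5.71 in KO_PBS and 150 ± 15.3 in WT (SD, n = 3 each). Psmb6 and Psmb4, the next genes in WT at 149 ± 28.3 and 148 ± 21.7, did not differ from it beyond their spread. Psmb8 ranked 35 of 44 in both knockout groups, at 20.7 ± 8.64 in KO_antimiR21 and 24.2 ± 5.71 in KO_PBS, and 42 of 44 in WT, at 3.33 ± 0.468 CPM per kilobase. Psmb10 ranked 31 in KO_antimiR21, 25 in KO_PBS and 40 in WT. PA28 was far more abundant than the inducible catalytic genes: Psme1 had 114 ± 28.1 CPM per kilobase in KO_antimiR21, 114 ± 26.9 in KO_PBS and 67.2 ± 8.70 in WT.

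The rest of the core and the 19S particle varied little between groups. The 7 alpha-ring genes, which gate the barrel, ranged in KO_PBS against WT from -0.25 ± 0.16 (Psma4) to 0.20 ± 0.12 (Psma5) on the log2 scale. The 4 structural beta-ring genes ranged from -0.19 ± 0.15 (Psmb1) to 0.06 ± 0.14 (Psmb2), and the 6 ATPases of the 19S base from -0.24 ± 0.14 (Psmc3) to 0.01 ± 0.14 (Psmc4). None of these 17 genes was called in any comparison. For the 31 constitutive genes of the core and the 19S particle together the median was -0.09 in KO_PBS against WT, 9 values were positive and 22 negative. All 31 intervals at 95% lay between -1 and 1, and 22 of them between -0.5 and 0.5. With library size alone this median was 0.19, so its direction depends on the scaling, and without WT 2 it was 0.01. In KO_antimiR21 against WT the median was 0.0005 with none called, and in KO_antimiR21 against KO_PBS it was 0.06 with none called.

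Among the 39 tested members outside the inducible set, 3 were called in KO_PBS against WT. Psmd9, a chaperone of 19S base assembly, had 27.0, 25.4 and 29.3 CPM in KO_antimiR21, 25.3, 25.03 and 25.1 CPM in KO_PBS, and 38.0, 33.4 and 43.4 CPM in WT. All knockout libraries lay below all WT libraries. Its log2 fold change was -0.49 ± 0.13 in KO_antimiR21 against WT, just outside the threshold (edgeR adjusted p = 0.0513), and -0.60 ± 0.13 in KO_PBS against WT (edgeR adjusted p = 0.0105). Psmd3, a subunit of the 19S lid, had 166, 148 and 167 CPM in KO_antimiR21, 162, 163 and 168 CPM in KO_PBS, and 266, 191 and 259 CPM in WT. It too did not overlap with WT in either knockout group, and WT 2 was the lowest of the WT libraries. Its log2 fold change was -0.57 ± 0.15 in KO_antimiR21 against WT (edgeR adjusted p = 0.0541) and -0.54 ± 0.15 in KO_PBS against WT (edgeR adjusted p = 0.0305). Psmd8, another lid subunit, had 147, 179 and 139 CPM in KO_antimiR21, 189, 160 and 181 CPM in KO_PBS, and 130, 135 and 124 CPM in WT. It lay above WT in every knockout library, by little in KO_antimiR21 3. Its log2 fold change was 0.26 ± 0.14 in KO_antimiR21 against WT (edgeR adjusted p = 0.334) and 0.45 ± 0.14 in KO_PBS against WT (edgeR adjusted p = 0.0423).

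The Psmd8 call was lost under 12 of 18 alternative settings, among them the loss of any 1 WT or KO_PBS library, and the Psmd3 call under 10 of 18, among them the loss of WT 1, WT 3 or any KO_PBS library. The Psmd9 call was lost under 2 of 18. In KO_antimiR21 against WT both Psmd9 and Psmd3 passed without WT 2, at -0.56 and -0.69 (edgeR adjusted p-values of 0.0437 and 0.0208). Exons of Psmd3 and Psmd9 overlap long non-coding transcripts on the other strand (Gm12356 and Gm26745). The other assembly chaperones, Psmd5, Psmd10 and Psmg3, were not called, and their log2 fold changes in KO_PBS against WT ran from -0.54 ± 0.27 for Psmd5 to 0.25 ± 0.20 for Psmd10. The alternative caps Psme3 (PA28-gamma, found in the nucleus) and Psme4 (PA200) differed by -0.01 ± 0.17 and -0.17 ± 0.19, and the inhibitor Psmf1 by 0.04 ± 0.10. Of all 39, 3 had KO_antimiR21 libraries apart from WT, against 24.5% of all tested genes. In KO_PBS 8 of the 39 lay apart from WT, 2 above and 6 below, against 43.1% of all tested genes.

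In KO_antimiR21 against KO_PBS the 39 other members lay between -0.24 (Psmc3ip) and 0.24 (Psmb7) on the log2 scale. The 3 with the lowest p, leaving the catalytic genes aside, were Psma4, Psmd8 and Psmd12. Psma4, an alpha-ring gene, had 188, 127 and 153 CPM in KO_antimiR21, 133, 138 and 125 CPM in KO_PBS, and 145, 155 and 170 CPM in WT. Its KO_antimiR21 and KO_PBS libraries overlapped, and the log2 fold change was 0.24 ± 0.16 (edgeR adjusted p = 0.765). Exons of Psma4 overlap those of AY074887 on the other strand. Psmd8 differed by -0.19 ± 0.14 and Psmd12, a lid subunit with 64.5, 56.3 and 69.7 CPM in KO_antimiR21 and 54.6, 61.5 and 54.6 CPM in KO_PBS, by 0.16 ± 0.13 (edgeR adjusted p-values of 0.793 and 0.835).

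Summed over genes, the inducible catalytic set and the leukocyte markers were both higher in every knockout library than in every WT library. The 3 inducible catalytic genes summed to 4.82, 4.59 and 2.04 times the WT mean in KO_antimiR21, to 5.60, 4.08 and 3.88 times it in KO_PBS, and to 0.896, 0.996 and 1.11 times it in WT. The 18 leukocyte markers tested summed to 3.64, 4.26 and 2.04 times their WT mean in KO_antimiR21, to 5.21, 4.25 and 4.29 times it in KO_PBS, and to 0.876, 1.08 and 1.04 times it in WT. In both sums KO_antimiR21 3 was the lowest knockout library and KO_PBS 1 the highest. The order of the other libraries differed between the sums. KO_antimiR21 1 lay above KO_antimiR21 2 in the inducible sum and below it in the leukocyte sum. KO_PBS 2 and KO_PBS 3 also changed places, as did WT 2 and WT 3. The summed leukocyte level was 451 to 944 CPM in KO_antimiR21, 941 to 1155 CPM in KO_PBS and 194 to 240 CPM in WT. In KO_antimiR21 against WT 14 of the 18 rose, and in KO_PBS against WT 15 of the 18 rose, with a median log2 fold change of 2.65 and 2.96. Over all tested genes 6.72% and 14.6% were called higher, with medians of -0.04 and -0.03. Cx3cr1, a receptor of macrophages, had 39.5 ± 2.94 CPM in KO_PBS and 3.37 ± 0.356 CPM in WT, and the pan-leukocyte genes Itgb2 and Cd53 had log2 fold changes of 2.95 and 3.44 in KO_PBS against WT. Cd3e, which marks T cells, was at 0 in WT 1 and present in the other 8 libraries, and Ms4a1, which marks B cells, did not pass the filter. Leukocytes express the inducible subunits, and the part of leukocyte number in these results was not tested. In bulk tissue, more cells of a type and more RNA per cell cannot be told apart.

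Between groups, the constitutive core did not move with either sum. It stood at 0.868 to 1.13 times its WT mean in KO_antimiR21. In KO_PBS it stood at 0.862 to 0.964 times that mean, and in WT at 0.877 to 1.07 times it. Within groups it shifted between libraries. In KO_PBS 1 to 3 it stood at 0.964, 0.920 and 0.862, in the order of the inducible catalytic sum. In WT 1 to 3 it stood at 0.877, 1.07 and 1.055, in the order of the leukocyte sum. In KO_antimiR21 1 to 3 it stood at 1.13, 0.868 and 0.985, in the order of neither sum. The 17 genes of the 19S particle stood at 0.930 to 0.985 times their WT mean in KO_antimiR21, which overlapped the WT range of 0.968 to 1.06. In KO_PBS they stood at 0.937 to 0.958 times that mean, so every KO_PBS library lay just under the WT range. PA28 stood at 1.26 to 2.07 times its WT mean in KO_antimiR21 and at 1.40 to 2.04 times it in KO_PBS. Markers of kidney epithelium and podocytes fell in KO_PBS, with 5 of 10 called lower against WT, among them Slc12a1 of the thick ascending limb at -1.76 and Lrp2 of the proximal tubule at -1.96 on the log2 scale. In KO_antimiR21 against WT 0 of these 10 were called by edgeR. There 0.427% of all tested genes were called lower, against 9.85% in KO_PBS against WT. The list median was -0.79 in KO_antimiR21 against WT and -1.25 in KO_PBS against WT. None of the 10 was called in KO_antimiR21 against KO_PBS.

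**Figure D4:**
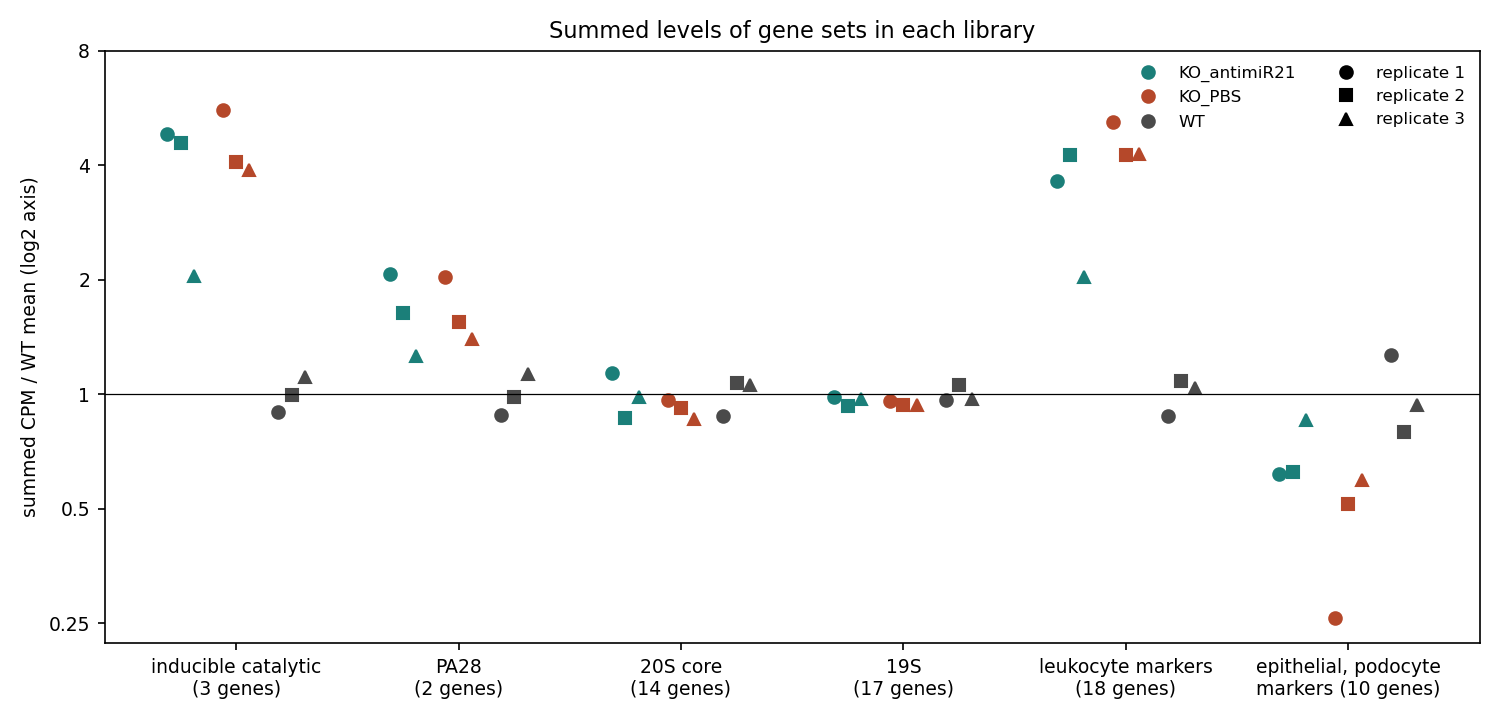
Summed CPM of 6 gene sets in each library divided by the mean of the WT libraries, on a log2 axis, with colour for the group and marker shape for the replicate. The inducible catalytic genes and the leukocyte markers both stand at 2.04 times the WT mean in KO_antimiR21 3 and between 3.64 and 5.60 times it in the other 5 knockout libraries, while the 20S core and the 19S genes stay within 0.861 and 1.13 times it in all libraries.

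Genes that feed or follow the proteasome were read from lists of its pathway. Of 9 genes of class I peptide loading found in the table, 5 rose in KO_antimiR21 against WT and the same number in KO_PBS against WT, with list medians of 0.79 and 1.01 on the log2 scale. The shares of all tested genes called higher were 6.72% and 14.6%, and their medians -0.04 and -0.03. Tap1, which carries proteasome products into the endoplasmic reticulum and shares the Psmb9 promoter, had 25.3 ± 10.2 CPM in KO_antimiR21, 32.1 ± 1.65 in KO_PBS and 8.32 ± 1.46 in WT (SD, n = 3 each). Its log2 fold change was 1.60 ± 0.27 in KO_antimiR21 against WT (edgeR adjusted p = 0.00873) and 1.95 ± 0.27 in KO_PBS against WT (edgeR adjusted p = 0.00206), beside 2.05 and 1.99 for Psmb9. Tapbpl, a peptide editor, and B2m, the light chain of class I, rose by 1.25 and 1.20 on the log2 scale in KO_PBS against WT (edgeR adjusted p-values of 0.00288 and 0.00306). The chaperone genes Calr, Canx and Pdia3 and the peptidase Arts1 (Erap1) were the 4 that were not called.

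Of 12 tested genes of interferon-gamma signalling, 8 rose in KO_antimiR21 against WT and 9 in KO_PBS against WT, with medians of 1.13 and 1.36. Among all tested genes 6.72% and 14.6% were called higher in the same order, with medians of -0.04 and -0.03. Irf1, a transcription factor that acts on immunoproteasome promoters, had 54.3 ± 15.7 CPM in KO_antimiR21, 68.1 ± 8.19 in KO_PBS and 15.99 ± 1.88 in WT. The receptor chain Ifngr1 rose by 1.27 in KO_antimiR21 against WT and by 1.87 in KO_PBS against WT, and Socs3, a feedback inhibitor of cytokine signalling, by 3.16 and by 4.199 (edgeR adjusted p-values of 0.00994 and 0.00147, and of 0.00417 and 0.00135). Ifng itself did not pass the filter on low counts.

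Counts in the lists around the constitutive proteasome stand beside the shares of all tested genes called. These were 6.72% higher and 0.427% lower in KO_antimiR21 against WT, and 14.6% higher and 9.85% lower in KO_PBS against WT. Of 8 regulators of proteasome gene transcription, 1 rose in KO_antimiR21 against WT and 2 in KO_PBS against WT. Stat3 had 184 ± 51.4 CPM in KO_antimiR21, 230 ± 14.7 in KO_PBS and 88.5 ± 3.24 in WT (log2 fold changes of 1.05 and 1.38, edgeR adjusted p = 0.0107 and 0.00200). Maff, a small partner of NRF factors, was higher by 2.10 ± 0.56 in KO_PBS against WT (edgeR adjusted p = 0.0265), and Ngly1, which activates NRF1, was at -0.41 ± 0.20 (edgeR adjusted p = 0.175). Of 7 ubiquitin and E1 genes 1 rose in each comparison with WT, Ube1l (Uba7), the activating enzyme of the ubiquitin-like protein ISG15, at 1.21 ± 0.25 in KO_antimiR21 and 1.497 ± 0.25 in KO_PBS (edgeR adjusted p = 0.0193 and 0.00394). Rps27a, a ubiquitin gene, was at 0.37 ± 0.21 in KO_PBS against WT and not called. Of 16 partners and shuttles of the proteasome 0 were called in any comparison by edgeR, with a median of -0.05 in KO_PBS against WT, with Ubqln1 at -0.32 ± 0.17 and Usp14 at 0.22 ± 0.13 among the lowest p-values. In KO_antimiR21 against KO_PBS no gene of any of these lists was called.

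Sex and the library code moved with the groups, so the inducible genes were also read within them. The lowest knockout library, KO_antimiR21 3, had 17.7 CPM of Psmb8, 8.75 of Psmb9 and 23.1 of Psmb10, and WT 2, the only WT library with male RNA, had 6.02, 3.33 and 14.8 CPM of the same genes. All knockout libraries carried male RNA, so a fit with sex as a term took the WT level for these comparisons from WT 2 alone. In that fit the log2 fold changes in KO_antimiR21 against WT were 2.49, 2.18 and 1.56 for Psmb8, Psmb9 and Psmb10. In KO_PBS against WT they were 2.71, 2.12 and 1.91. None passed the threshold in that fit (edgeR adjusted p-values of 0.161 to 0.251 and of 0.0553 to 0.0763), nor did any of the tested genes. Within code L4, KO_PBS 1 and KO_PBS 2 had 50.01 and 35.1 CPM of Psmb8 and the 3 WT libraries 4.56 to 6.02 CPM. Within code L5, the 3 KO_antimiR21 libraries had 17.7 to 44.1 CPM of Psmb8 and KO_PBS 3 had 32.9 CPM. With the code as a term, all 5 inducible members passed in KO_PBS against WT (edgeR adjusted p of 0.00456 for Psmb8 to 0.0417 for Psme1). No library of KO_antimiR21 shares a code with a WT library, and in that comparison the code and the group cannot be told apart except through KO_PBS.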

How the data were processed

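The deposited tables hold 1 expected count per gene symbol and library, made by the authors with Bowtie and RSEM against the mouse build mm9, per the submitters' processing notes. The gene annotation and the strand setting are not given in the sources used here. RSEM divides reads among similar sequences, so close gene copies share counts. The authors also deposited a matrix of log2 values, each equal to log2 CPM plus 1 constant per library to within 5.12e-14, and it served as an alternative. Libraries came from 150 ng of total RNA with a TruSeq v2 kit, per the labels' protocols.

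Groups and replicate numbers were read from the sample titles. Expected counts were rounded and tested in edgeR 4.0.16 (R 4.3.3) with TMM scaling, filterByExpr and 1 mean for each of the 3 groups over all 9 libraries, with Benjamini-Hochberg adjustment over 17315 genes. The procedure was run on simulated data with 200 genes changed by 1.5 on the log2 scale in KO_PBS, and the outcome is not given here. That change is larger than those of Psme1, Psme2, Psmd3, Psmd8 and Psmd9, so the run does not bear on calls of their size. The simulated data held no effect of sex or library code, so the run does not bear on either. SE is the log2 fold change divided by the square root of F. Ratios of catalytic pairs, with 0.5 added to each count, were compared by two-sided exact permutation tests. Alternatives used DESeq2 1.42.0, limma 3.58.1, other scaling and filters, covariates and the loss of each library. The members, roles and gene lists were chosen with earlier results of these data known. Full values were given to the 5 inducible and 3 constitutive catalytic genes and to the 3 other members with the lowest p in each comparison; in each list the 3 genes with the lowest p in KO_PBS against WT were named, apart from genes not reported here. No pair of replicates agreed within sampling noise (chi-square per gene of 30.7 or more). Intervals of fold changes rest on 3 libraries a group, whatever the depth.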

Additional observations from a re-analysis of the deposited data

How the results depend on the processing

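Alternatives were 9 other fits and the loss of each of the 9 libraries. Over all genes, KO_PBS against WT gave 4226 calls, 0 with sex as a covariate and 2423 to 4332 when 1 library was left out. For the inducible members there the count of 5 became 3 with the replicate block, 0 with sex, and 3 to 5 when 1 library was left out. For the other members the count of 3 became 4 by DESeq2, 1 with the replicate block, 1 with the library code, 0 with sex, and 1 to 3 with a library left out. KO_antimiR21 against KO_PBS gave 19 calls over all genes by DESeq2 and none among the members under any alternative. KO_antimiR21 against WT gave 1238 calls, 2011 by DESeq2, 707 with only the compared groups in the fit, 0 with the library code, 0 with sex, and 667 to 1602 with a library left out. For the inducible members there the count of 3 became 5 by DESeq2, 0 with the code, 0 with sex and 2 to 5 with a library left out (5 without KO_antimiR21 3, and 2 without KO_antimiR21 1, KO_antimiR21 2 or any WT library). For the other members the count of 0 became 2 by DESeq2 and 0 to 2 with a library left out. With sex as a covariate, both comparisons with WT took the WT level from WT 2, the only WT library with male RNA. The cause of these changes in count was not tested. Same-numbered libraries of 2 groups deviated together with correlations of -0.311 to 0.403, so the numbers were not taken as pairs.

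Psmb8, Psmb9 and Psmb10 kept their direction against WT under all alternatives in both knockout groups, and in KO_PBS against WT their calls were lost only with sex as a covariate. Signs turned only for values that were not called. In KO_PBS against WT with library size only, Psmb5 was 0.19, Psmb6 0.056, Psma4 0.033 and Psmd12 0.13. In KO_antimiR21 against KO_PBS, library size only gave -0.056 for Psmb9, -0.0053 for Psmb5 and -0.023 for Psmd9, and the library code gave 0.033 for Psmb8, 0.27 for Psme1 and 0.22 for Psme2. There Psme1 was 0.015 without the filter, 0.0069 with only the compared groups and 0.010 by limma, and Psme2 0.0081 and 0.00036 in the first 2 of these. In KO_antimiR21 against WT, Psmb6 was 0.10, 0.12 and 0.0043, and Psma4 0.13, 0.11 and 0.012, with library size only, the code and sex. Psma4 was also 0.010 without the filter and 0.00053 with only the compared groups, and with sex Psmb5 was -0.092 and Psmd12 -0.19.

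With a library left out, KO_antimiR21 against KO_PBS ran from -0.44 to 0.11 for Psmb8, -0.15 to 0.37 for Psmb9, -0.61 to -0.022 for Psmb10, -0.20 to 0.23 for Psme1, -0.20 to 0.17 for Psme2, -0.059 to 0.27 for Psmb5, -0.045 to 0.34 for Psmb6 and -0.060 to 0.043 for Psmd3. KO_antimiR21 against WT ran from -0.15 to 0.17 for Psmb5, -0.27 to 0.12 for Psmb6, -0.16 to 0.14 for Psma4 and -0.050 to 0.14 for Psmd12. The log2 ratios ran in KO_antimiR21 against KO_PBS from -0.79 to -0.057 for Psmb8 to Psmb5, -0.42 to 0.11 for Psmb9 to Psmb6 and -0.95 to -0.16 for Psmb10 to Psmb7. All ratio differences moved by less than the spread between libraries, also from the deposited log2 matrix, an alternative chosen after seeing the data.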
